A study of Mus musculus with 4 samples.

Results

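The BTB zinc finger genes examined here were the 41 protein-coding genes of the mouse whose symbol begins with Zbtb followed by a number, out of 21000 protein-coding genes with curated RefSeq transcripts. Of these 41 genes, 40 carry the name of the family. Zbtb8os fits the letters of the symbol but is named for its place on the opposite strand from the Zbtb8 genes, and it encodes an archease, a cofactor of RNA ligation. RUNX1 binding was mapped by ChIP-seq in ovaries of CD1 mouse embryos at E14.5, with 2 ChIP experiments and 2 input libraries, and the labels name no mutant allele or treatment. Each ChIP used pools of 80 to 100 ovaries by the sample labels, 20 to 30 µg of chromatin and 10 µl of an antibody to RUNX1. Whole ovaries were used, so the peaks come from all cells of the gonad in which RUNX1 was bound. From the peaks alone, binding in a single cell type cannot be told apart from binding in another. The paper reports that a Runx1 reporter was expressed in pre-granulosa cells, the supporting cells of the fetal ovary, at this stage. Peaks were called on the merged ChIP reads, and each peak thus has 1 fold enrichment over background and 1 p-value, both from the authors' peak caller, with no value per replicate. Read numbers per peak were not analysed here. Of the 10490 peaks of 300 bp on assembled chromosomes, 26 had their nearest transcription start site (TSS) at a Zbtb gene. Coordinates are those of mm10. A list of peaks holds no expression, so the tissue was not checked against marker genes. Because the list gives no error, differences between genes or peaks below are differences within this list and were not tested.

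BTB zinc finger proteins are transcription factors that join an N-terminal BTB domain, through which they pair with each other and recruit corepressors such as NCOR and BCOR, to a row of C-terminal C2H2 zinc fingers that read DNA. Most of those that have been studied act as repressors. Several are known as switches of cell fate in blood, where RUNX proteins act beside them: the RUNX-bound silencer of Zbtb7b, which keeps the gene off in cytotoxic T cells, is the textbook case. In the gonad the family is best known for Zbtb16 (PLZF), which maintains the stem cells of the male germ line.

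RUNX1 peaks were nearest to 23 of the 41 Zbtb genes (56.1%), against 39.1% of all protein-coding genes. A nearest peak lay within 1 kb of the TSS for 20 of them (48.8%, against 34.4%), and it covered the TSS for 7 (17.1%, against 17.0%). The promoters of the family are rich in CpG, and this moved with the share of genes nearest to a peak. In the promoter windows of the RefSeq table of GRCm38.p6, which are 300 bases long with most of their length before the start site and were matched for 36 of the 41 genes, the window richest in CpG had a median of 9.67 CpG per 100 bases, against 5.0 over 16853 protein-coding genes. It was 10.3 for the 21 matched members with a peak and 7.67 for the 15 without, and over all protein-coding genes 8.0 with and 2.33 without. The part of CpG content in the share was not tested.

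The peaks themselves were of ordinary strength. Their folds ran from 4.04 to 16.66 with a median of 6.34, against a median of 6.41 over all peaks. Taking for each of the 23 genes its strongest peak, the median fold was 6.35 (quartiles 5.37 and 7.9), against 6.66 over the 8203 protein-coding genes nearest to a peak. Of the 26, 15 lay below the median of all peaks, and 4 lay in the highest quartile of all peaks, above 8.89. A peak of fold 8 or more was nearest to 6 Zbtb genes (14.6%, against 13.8% of all protein-coding genes), a share close to that of all genes. A peak with a p-value under 1e-20 was nearest to 9 (22.0%, against 15.1%).

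**Figure D1:**
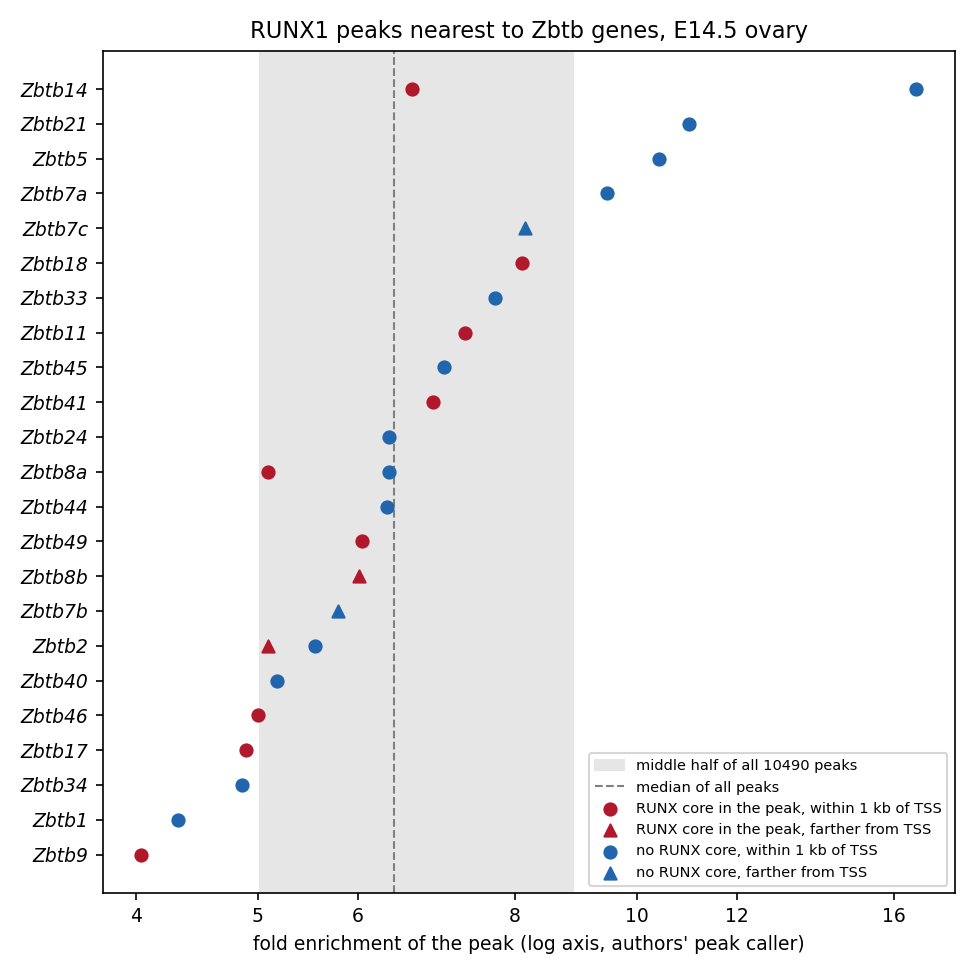
Fold enrichment (log axis) of the 26 RUNX1 peaks nearest to 23 Zbtb genes, with genes ordered by their strongest peak; red marks a RUNX core in the peak, triangles mark peaks over 1 kb from the TSS, and the grey band spans the quartiles of all 10490 peaks, 5.02 to 8.89. The peak upstream of Zbtb14 stands highest at 16.66, and none of the 4 peaks above the band holds a RUNX core.

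The strongest peak of the family was at Zbtb14, which encodes ZF5, a protein that binds GC-rich promoters. It lay 74 bp upstream of the first of its 3 TSSs, at chr17:69382802-69383101, with a fold of 16.66 and a p-value of 8.83e-24, and ranked 516 by fold among all peaks. A second peak, of fold 6.63 (p-value 2.38e-21), lay in the first exon of a transcript that starts farther downstream, 138 bp past that TSS. The stronger peak held no RUNX core, that is neither TGCGGT nor TGTGGT on either strand, and the weaker one held 1. It held the site of NRF1, a factor of housekeeping promoters, and a GC box, the site of SP and KLF proteins. Both are in capitals in its sequence (NRF1 as GCGCATGC, the reverse complement of GCATGCGC, and the GC box as GGGCGG).
Zbtb14 (chr17:69382802-69383101, forward strand): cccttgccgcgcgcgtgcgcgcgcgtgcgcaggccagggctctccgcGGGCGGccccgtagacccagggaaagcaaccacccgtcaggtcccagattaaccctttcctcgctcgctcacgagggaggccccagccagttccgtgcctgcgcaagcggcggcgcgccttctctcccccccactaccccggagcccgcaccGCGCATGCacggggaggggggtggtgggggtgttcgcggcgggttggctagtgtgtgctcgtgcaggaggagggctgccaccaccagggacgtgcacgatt

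Next in strength were peaks just inside the transcribed part of 3 genes. Zbtb21, which encodes a large BTB zinc finger protein, had a peak at chr16:97962265-97962564 in its first exon, 58 bp downstream of the TSS. Its fold was 11, and its p-value of 2.19e-67 was the lowest among the members' peaks. Zbtb5, which encodes a repressor of the cell cycle inhibitor gene Cdkn1a, had a peak at chr4:45011854-45012153, 259 bp downstream of its TSS (fold 10.41, p-value 4.91e-30). The start of the noncoding gene 1700055D18Rik also lay within 1 kb of that peak. Zbtb7a, whose protein LRF silences fetal globin genes and holds back NOTCH signaling in B cells, had a peak at chr10:81136436-81136735 in exon 1 (fold 9.46, p-value 6.13e-29). These 3 peaks held no RUNX core. Zbtb18, a gene of cortical neuron differentiation, had the strongest peak of the family with a RUNX core, 390 bp upstream of its TSS (fold 8.10, p-value 2.58e-20). The core lay near one edge of the peak, in capitals below as the reverse complement ACCGCA.
Zbtb18 (chr1:177441662-177441961, forward strand): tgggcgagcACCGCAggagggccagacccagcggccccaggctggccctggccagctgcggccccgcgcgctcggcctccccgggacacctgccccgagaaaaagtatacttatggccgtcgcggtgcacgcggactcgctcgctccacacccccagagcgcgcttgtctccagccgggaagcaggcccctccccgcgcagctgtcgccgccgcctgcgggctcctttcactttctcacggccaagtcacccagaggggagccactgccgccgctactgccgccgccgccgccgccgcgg

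Of the genes known from blood lineages, 5 of 7 were nearest to a peak, against 39.1% of protein-coding genes and 56.1% of the family. This and the other groups of roles serve to order the genes, were drawn up with earlier results of these data known, and carry no finding of their own. The strongest of the 5 was that of Zbtb7a. The others were weak by fold. Zbtb46, which marks classical dendritic cells, had a peak 344 bp upstream of its TSS (fold 5.0, p-value 7.11e-21). Zbtb17 (MIZ1, a partner of MYC) had one over its TSS (fold 4.89, p-value 1.52e-14), and this peak covered the start of all 4 curated transcripts. Zbtb1, required for lymphoid development, had one 79 bp downstream of its TSS (fold 4.32, p-value 2.39e-12). Zbtb7b (ThPOK, the CD4 lineage factor) was the nearest gene to a peak in its exon 4, 8860 bp from the closest TSS (fold 5.79, p-value 7.97e-12), and this peak held 5 GC boxes and no RUNX core. A stronger peak, of fold 8.58, lay 596 bp from another TSS of Zbtb7b but only 17 bp from that of the noncoding gene Gm15417, to which it was assigned. Zbtb16 and Zbtb32 were nearest to no peak. For Zbtb16, which spans 184429 bp, no peak lay within the gene and the nearest one was 148626 bp from a TSS, so in the listed group of germ line genes, Zbtb16 and Zbtb43, neither had a peak.

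The groups of roles that follow hold few genes each, beside 39.1% of protein-coding genes and 56.1% of the family nearest to a peak. Among the genes whose proteins bind methylated DNA, Zbtb33 (Kaiso) on the X chromosome had a peak over its TSS at chrX:38189668-38189967 (fold 7.71, p-value 2.22e-27). Zbtb4 and Zbtb38 had none. The nearest peaks to these were 6925 bp from the TSS of Zbtb4, at Polr2a, and 49130 bp from that of Zbtb38, at Rasa2. Of the 4 genes listed for chromosomes, telomeres and DNA methylation, Zbtb24, which is mutated in the ICF syndrome of centromeric hypomethylation, had a peak 6 bp downstream of its TSS (fold 6.35, p-value 3.16e-12) and Zbtb40 had one 7 bp downstream (fold 5.18, p-value 5.88e-12). The others of this list, Zbtb10 and Zbtb48, had none, and Zbtb10 was the farthest of the family from binding, with 246124 bp from its TSS to the nearest peak. Of the genes of the nervous system, Zbtb18 and Zbtb45 had peaks, the latter 40 bp downstream of its TSS (fold 7.03, p-value 6.86e-20), and Zbtb20 had none. Of the genes listed for p53, p21 and the cell cycle, Zbtb2, Zbtb5, Zbtb7c and Zbtb17 had peaks and Zbtb4 did not, against the same 39.1% of protein-coding genes. Zbtb2, a repressor of p53 signaling, had a peak over the TSS of 1 of its 2 transcripts (fold 5.55, p-value 3.00e-12).

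A further 7 members had peaks that lay within 1 kb of the TSS. Zbtb11 had one in exon 1, 167 bp downstream of its TSS (fold 7.30, p-value 1.08e-34), and the noncoding gene Zbtb11os1 starts within 1 kb of it. Zbtb41 had one in intron 1, 37 bp downstream of its TSS (fold 6.88, p-value 3.68e-26). Zbtb44 had one over its TSS (fold 6.33) that was the richest in GC of the family, at 78.7%. Zbtb49 had a peak of fold 6.05 over its TSS, which it shares closely with the divergent gene Lyar, as the TSSs are 28 bp apart. Zbtb34 had a peak in intron 1 (fold 4.86), whereas its neighbor Zbtb43, whose TSS is 37208 bp away, had none. Zbtb9 had the weakest peak of the family (fold 4.04), over its TSS. Zbtb8a had 2 peaks, 1 over its TSS (fold 6.35, p-value 3.16e-12) and 1 in intron 1, 699 bp downstream (fold 5.09, p-value 1.40e-09).

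Relative to the TSS, the members' peaks leaned into the gene, much as those of all protein-coding genes did. Within 1 kb of a TSS lay 22 of the 26 peaks (84.6%), and 7595 of the 9582 peaks nearest to protein-coding genes. The midpoint of 17 of the members' 22 peaks (77.3%) was downstream of the TSS, as for 70.7% of the 7595. The median midpoint was 156 bp downstream of the TSS (quartiles 22 and 273 bp), against 106 bp downstream over all. By context of the midpoint, with promoters taken as under 1 kb upstream of any TSS, 11 of the 26 peaks were in exons (42.3%, against 31.1% of all peaks), 7 in promoters (26.9%, against 32.4%), 7 in introns (26.9%, against 23.9%) and 1 downstream of a gene. None of them was intergenic or 1 to 10 kb upstream of a gene, as were 7.67% and 2.95% of all peaks. Of the 26 peaks, 3 had the TSS of a gene outside the family within 1 kb, at Zbtb5, Zbtb11 and Zbtb49.

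**Figure D2:**
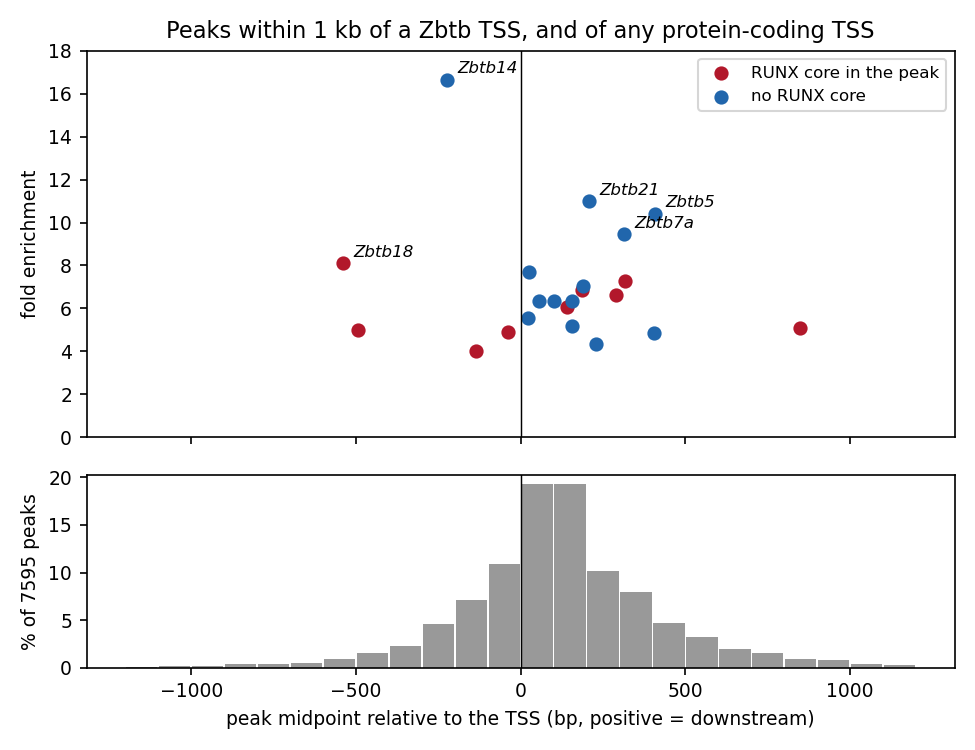
Position of the midpoint of each of the 22 peaks within 1 kb of a Zbtb TSS, in bp along the direction of transcription, against fold enrichment (upper panel), with the distribution of the 7595 peaks within 1 kb of a protein-coding TSS in bins of 100 bp (lower panel). Of the 22 midpoints 17 lie downstream of the TSS, and the peak of Zbtb14 at fold 16.66 lies upstream.

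Few members had a peak far from the TSS, as was the case for protein-coding genes as a whole. A nearest peak over 10 kb away was found for 3 genes, Zbtb2, Zbtb7c and Zbtb8b (7.32%, against 5.14% of protein-coding genes), and 2 or more nearest peaks for 3 genes, Zbtb2, Zbtb8a and Zbtb14 (7.32%, against 6.13%). Zbtb7c (Kr-pok), which spans 328387 bp, had a single peak in intron 1, 10620 bp from the nearest TSS (fold 8.15, p-value 2.11e-13), with no RUNX core. At Zbtb8b the peak lay beyond the end of the gene, 24069 bp from its TSS (fold 6.02, p-value 1.32e-12). It was poor in GC, at 41.7%, against a median of 68.5% over the members' peaks, and it held 3 cores of the form TGTGGT, the most of any peak of the family. They are in capitals below, as TGTGGT or, on the other strand, ACCACA.
Zbtb8b (chr4:129416450-129416749, forward strand): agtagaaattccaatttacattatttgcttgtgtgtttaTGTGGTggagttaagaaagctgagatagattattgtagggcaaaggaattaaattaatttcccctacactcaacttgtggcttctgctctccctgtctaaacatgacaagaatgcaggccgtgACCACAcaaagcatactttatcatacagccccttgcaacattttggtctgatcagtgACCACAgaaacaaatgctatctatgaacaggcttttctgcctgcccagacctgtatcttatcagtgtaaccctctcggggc

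The far peak of Zbtb2 lay in intron 2 of Akap12, a scaffold protein gene, 40314 bp from the TSS of Zbtb2 (fold 5.09, p-value 1.40e-09). It held 1 core, printed below in its own orientation with 12 bases on either side.
Zbtb2 (chr10:4347026-4347055, forward strand): tagataggggtgTGTGGTttccagcctttc

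RUNX cores were found in 11 of the 26 peaks (42.3%), against 39.9% of all peaks. TGCGGT was found in 8 peaks (30.8%, against 23.7%) and TGTGGT in 4 (15.4%, against 19.5%). Within 1 kb of the TSS, 9 of 22 peaks held a core (40.9%), against 34% of such peaks of all protein-coding genes. Among peaks as a whole, those of fold 8 or more held a core more often (50.4% of 3372) than weaker ones (35.0% of 7118). Split by fold, the members' peaks ran the other way, with a core in 1 of the 6 peaks of fold 8 or more and in 10 of the 20 weaker ones. This rests on 6 peaks, and it was not seen when strength was taken from the p-value. Among the 10 members' peaks with p-values under 1e-20, the share with a core was above the 42.3% of all 26.

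The cores of the members' peaks mostly lay away from the midpoint, though there are only 14 cores in 11 peaks, some in the same peak. Their positions were not set beside those of other families and were not tested. Of the 14 cores, 2 were within 50 bp of the midpoint of their peak (14.3%), against 49.4% of the 5193 cores of all peaks. Both belonged to peaks over 10 kb from the TSS, those of Zbtb8b (15 bp from the midpoint) and Zbtb2 (29 bp). In the 9 peaks with cores within 1 kb of the TSS, 0 of 10 cores lay within 50 bp of the midpoint, against 45.1% of the 3030 cores of all peaks near protein-coding TSSs. The median distance of a core from the midpoint was 107.5 bp for the members and 51.0 bp for all peaks. A core in the middle 200 bp was held by 5 of the 26 peaks (19.2%), against 33.2% of all peaks and 27.2% of those near protein-coding TSSs. At Zbtb49 and Zbtb9, the core touched the edge of the peak. The 10 cores near a TSS are printed in capitals with up to 12 bases on either side that lie within the peak, in the orientation of the core, as these are the RUNX cores of the peaks within 1 kb of a TSS.
Zbtb41 (chr1:139422697-139422719, forward strand): ccaaatcgggacTGCGGTcccgg
Zbtb18 (chr1:177441662-177441688, reverse strand): gtctggccctccTGCGGTgctcgccca
Zbtb46 (chr2:181459816-181459845, reverse strand): acccgaccctgcTGCGGTgaacttgcccag
Zbtb8a (chr4:129377042-129377071, forward strand): gttggcggcgtgTGTGGTtgggtgcccgct
Zbtb8a (chr4:129377111-129377140, reverse strand): cgcccttgaccgTGCGGTtattcgtaatcc
Zbtb17 (chr4:141444766-141444793, forward strand): tgcacctccatcTGTGGTggggttcggg
Zbtb49 (chr5:38220165-38220182, reverse strand): agtcacccttgcTGCGGT
Zbtb11 (chr16:55974213-55974242, reverse strand): cggcgaaggtctTGCGGTgccgctgccgcc
Zbtb9 (chr17:26973175-26973192, forward strand): gtccggcggaacTGCGGT
Zbtb14 (chr17:69384136-69384165, forward strand): actcccaagttgTGCGGTcgcaacagggaa

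Zbtb41 was the third strongest member with a core in its peak, after Zbtb18 and Zbtb11, whose whole peak is exonic. The part of its peak that lies outside exons is given on the forward strand, with the core at its right end in capitals.
Zbtb41 (chr1:139422596-139422719, forward strand): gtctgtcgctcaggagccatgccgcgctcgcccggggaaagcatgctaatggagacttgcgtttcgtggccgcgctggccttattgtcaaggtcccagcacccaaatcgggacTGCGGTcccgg

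**Figure D3:**
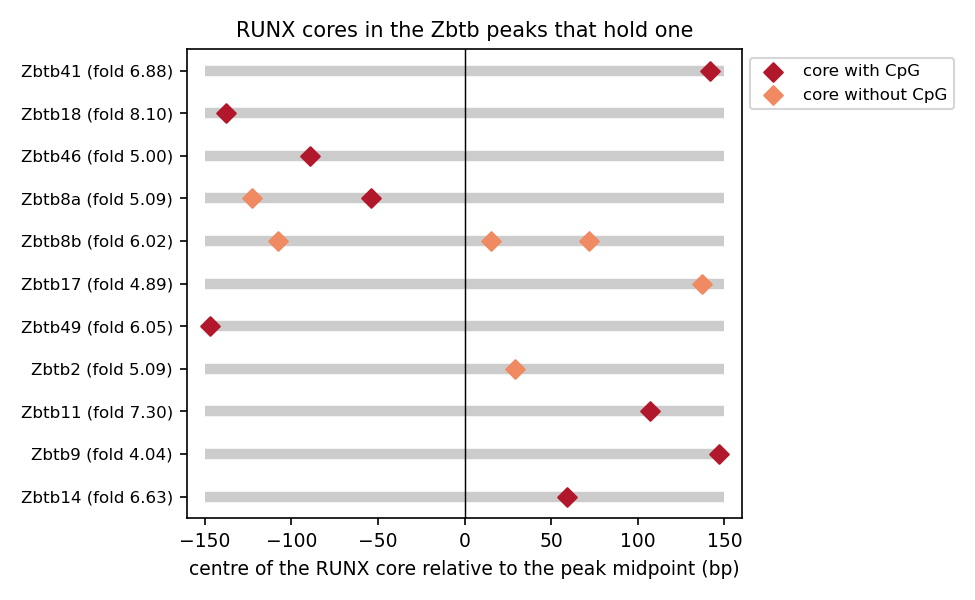
Distance in bp, along the forward strand, of each RUNX core from the midpoint of its peak, for the 11 peaks of Zbtb genes that hold a core; grey bars span the 300 bp of each peak, dark diamonds are TGCGGT and light ones TGTGGT. The cores within 50 bp of the midpoint are those of the distant peaks of Zbtb8b and Zbtb2.

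Other sites were searched on both strands in the same 26 peaks. The ETS site CCGGAAGT was in 0 peaks (4.66% of all peaks), as were the CTCF site (1.35%) and CTCGCGAG, the middle of the palindrome bound by Kaiso (1.34%). With 26 peaks, shares of this size come to a single peak or none, and no difference was detectable. GC boxes were in 11 peaks (42.3%, against 57.0%). NRF1 sites (GCATGCGC) were in 3 peaks (11.5%, against 2.43%), those of Zbtb14, Zbtb17 and Zbtb21, and at Zbtb17 2 matches on opposite strands overlapped. Within 1 kb of the TSS, GC boxes were in 45.5% of the members' peaks, against 65.9% of such peaks of all protein-coding genes. For NRF1 sites these shares were 13.6% and 2.71%. The NRF1 share rests on 3 peaks and was not tested. The forkhead site, TGTTTAC or TATTTAC, the kind read by FOXL2, was in 1 peak (3.85%, against 3.24%), that of Zbtb34. These sites are shown in capitals with 11 bases on either side, apart from that of Zbtb14, which is in the sequence above.
Zbtb21 (chr16:97962269-97962298, forward strand): gcgggcagagaGCATGCGCagtgcttggac
Zbtb17 (chr4:141444598-141444627, forward strand): gctggcacggcGCATGCGCctgccggcggt
Zbtb34 (chr2:33430857-33430885, forward strand): cacgcgccgccTGTTTACctggcacacgg

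RUNX cores also stood in promoter windows outside the members' peaks. A core lay in 15 of the 49 windows of the 36 matched members (30.6%), against 21.2% of the 20488 windows of protein-coding genes. Of the 12 windows that overlapped a member's peak, 2 held a core, and of the 37 others, 13 did. NRF1 sites were in 5 of the 49 windows (10.2%, against 3.64%), and 4 of these were among the 12 windows that overlapped a member's peak. These 12 windows belong to 10 genes, and windows of 1 gene can overlap. The same NRF1 site can thus count in several windows, and again among the peaks above. GC boxes were in 33 windows (67.3%, against 47.6%). The genes with a core in a window but no nearest peak were Zbtb20, Zbtb26 and Zbtb32. The cores of Zbtb20 and Zbtb26, both upstream of the start site, are printed below, to show cores of members to which no peak in the list was nearest. That of Zbtb26 lies inside the peak assigned to Rabgap1. Both sequences come from the RefSeq promoter table.
Zbtb20 (chr16:43247108-43247137, forward strand): tcctgggaagaaTGTGGTcatcacagaggc
Zbtb26 (chr2:37443328-37443357, forward strand): agctctgctgctTGTGGTtcttcggtagaa

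Of the 41 genes, 18 were nearest to no peak: Zbtb3, Zbtb4, Zbtb6, Zbtb8os, Zbtb10, Zbtb12, Zbtb16, Zbtb20, Zbtb22, Zbtb25, Zbtb26, Zbtb32, Zbtb37, Zbtb38, Zbtb39, Zbtb42, Zbtb43 and Zbtb48. Several of them stand beside a bound promoter of another gene. At Zbtb26 a peak of fold 4.29 lay 64 bp from the TSS but covered that of Rabgap1. At Zbtb37 a peak of fold 4.32 lay 125 bp from the TSS and covered that of the noncoding gene Gas5, and at Zbtb8os a peak of fold 14.81 lay 370 bp from the TSS and covered that of Rbbp4, a gene of a histone-binding protein of chromatin complexes. Zbtb25, divergent from Zbtb1, was 1039 bp from the peak assigned to Zbtb1. Zbtb3 was 3848 bp from one of the stronger peaks, of fold 17.28, at the RNA polymerase II subunit gene Polr2g. Zbtb12 and Zbtb22, both on chromosome 17, were 4582 bp and 6638 bp from peaks of fold 8.79 at Ehmt2 and Daxx, both genes of chromatin proteins, and Zbtb6 was 7865 bp from a peak of fold 4.88 at Rc3h2. Counting every peak within 1 kb of a TSS, whichever gene was nearest, 24 of the 41 genes had one (58.5%, against 37.4% of protein-coding genes). Counting every peak within 50 kb, 39 had one (95.1%, against 62.8%), the exceptions being Zbtb10 and Zbtb16.

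A peak within 10 kb of a TSS, whichever gene was nearest, was found for 30 of the 41 genes (73.2%), against 43.9% of protein-coding genes, and the other 11 lay farther away. They include Zbtb7c and Zbtb8b, whose own peaks are distant. The nearest peak was 11615 bp from Zbtb48, 15351 bp from Zbtb39, 37464 bp from Zbtb43, 39419 bp from Zbtb32 and 42959 bp from Zbtb42. Of the 3 members that span over 100 kb, Zbtb7c held 1 peak in its span and Zbtb16 and Zbtb20 held 0, whereas 51.2% of the 2317 protein-coding genes of that size held at least 1, and nothing can be read from 3 genes. Zbtb20, a gene of liver and hippocampus development, spans 711484 bp, and its nearest peak lay 31182 bp from a TSS at the noncoding gene 4932412D23Rik.

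The Zbtb8 genes lie together on chromosome 4. Along it stood the peak of Rbbp4 beside Zbtb8os (fold 14.81), the intron 1 peak and the TSS peak of Zbtb8a (folds 5.09 and 6.35) and the downstream peak of Zbtb8b (fold 6.02). The Zbtb7 genes, on 3 chromosomes, differed in where their peaks were: in exon 1 at Zbtb7a, in exon 4 at Zbtb7b and in intron 1 at Zbtb7c. None of these 3 peaks held a RUNX core.

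Of 8 BTB zinc finger genes with other names, 7 were nearest to a peak (87.5%, against 39.1% of protein-coding genes), and the exception was Mynn. These 8 were also listed with earlier results known. Gzf1, which encodes a repressor induced by GDNF, had a peak over its TSS (fold 13.49) with 1 core. Hic1, a tumor suppressor gene, had a distant peak, 51462 bp from its TSS, with a fold of 11.72 and 3 cores. Hic2 had a peak 135 bp downstream of its TSS (fold 8.02). Bcl6, the repressor of germinal center B cells, had a peak over its TSS (fold 6.23), and Bcl6b had one 621 bp downstream (fold 5.09). Patz1 had 2 peaks, with folds of 7.24 and 4.14, and Zfp131 had 1 of fold 4.94. With these genes, 30 of 49 genes by symbol or list, Zbtb8os included, were nearest to a peak (61.2%, against the same 39.1%). Because of how the 8 were listed, this share carries no finding of its own.

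Set beside related families, the Zbtb genes lay close to the BTB proteins without zinc fingers in the share nearest to a peak. Of the 46 Klhl and Kbtbd genes, whose proteins are adaptors of cullin ubiquitin ligases, 26 were nearest to a peak (56.5%), with a median strongest fold of 6.48. Of the 395 Zfp genes, 177 were (44.8%, median strongest fold 7.40), and of the 17 Klf genes, 14 were (82.4%, median strongest fold 7.9). Zfp131 counts both among the Zfp genes and among the 8 genes above. The share of peaks with a RUNX core was 42.3% for Zbtb, 30.0% for Klhl and Kbtbd, 39.1% for Zfp and 41.7% for Klf. These differences were not tested.

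**Figure D4:**
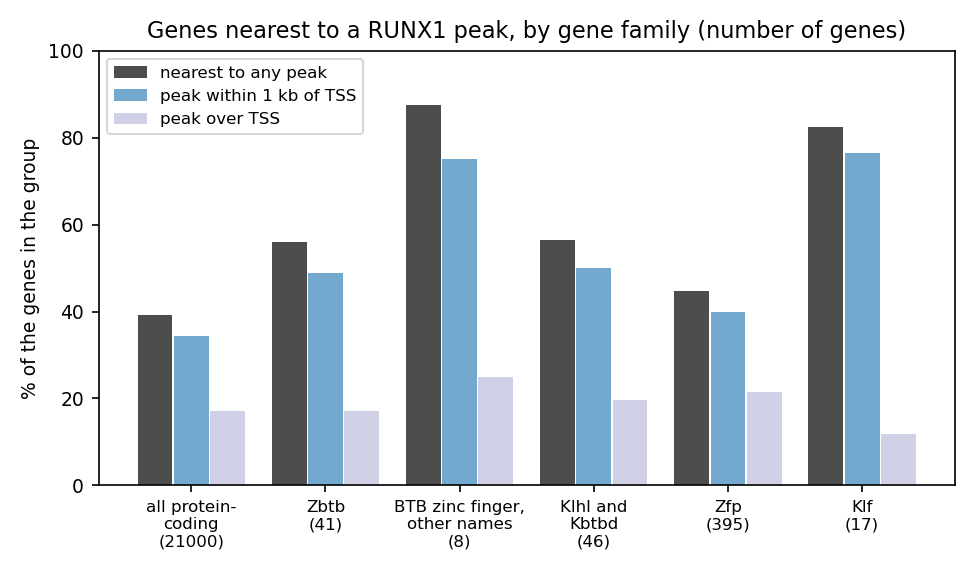
Share in percent of the genes of each family that were nearest to a RUNX1 peak (dark), had a nearest peak within 1 kb of the TSS (blue) or over it (light), with the number of genes in parentheses. The Zbtb genes stand at 56.1%, 48.8% and 17.1%, and all protein-coding genes at 39.1%, 34.4% and 17.0%.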

How the data were processed

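RUNX1 ChIP and input libraries of E14.5 ovaries were analysed from the list of peaks that the authors deposited. Tools named in the submitters' processing notes are HOMER 4.9, Bowtie 1.2, bedtools 2.24.0 and Picard 1.110. Per the methods, the authors kept unique mm10 hits, removed duplicates, merged both replicates, called peaks, reset them to 300 bp and filtered them on enrichment. The fold of a deposited peak is a ratio to background, stored with its p-value in 1 text field of another kind than a plain number. Reads per peak were not analysed here. Of 10494 peaks, 4 off assembled chromosomes were left out.

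Genes were the 45756 curated RefSeq transcripts of 26180 genes on GRCm38.p6, the assembly of mm10. A peak went to the gene with the closest TSS, measured from the edge of the peak, ties kept. Sites were matched as consensus letters with Python 3.11.15, in code tested on simulated data. Printed sequence comes from this genome and from the RefSeq promoter table, trimmed to stretches outside exons or to at most 30 bases. Every member is named, with full values by strength, number and distance of its peaks and by role. Members and lists were chosen with earlier results of these data known. Alternatives were stricter limits on fold or p-value, other sets of TSSs, other distances and other definitions of the core. Protein sequences were not analysed here, and no test was run.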

Additional observations from a re-analysis of the deposited data

How the results depend on the processing

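Of 38 alternative values, 26 stayed within 1.5 times the reported count or fold, or within 23.4% to 63.1%, the exact 95% binomial interval of the share of peaks with a core. Some of the 26 could not have moved. Zbtb8os was nearest to no peak, so leaving it out changed nothing. No member's peak was tied between genes, so leaving out ties changed nothing either. As all peaks are 300 bp wide, distances from the midpoint had to give each member's peak the same nearest gene. With peaks of fold 8 or more alone, 6 members and 6 peaks remained, the median strongest fold was 9.94, the share with a RUNX core was 16.7%, and 5 members had a peak within 1 kb of the TSS. With p-values under 1e-20, these counts were 9 members, 10 peaks and 9 members within 1 kb. The share with a RUNX core was then above the reported 42.3%, unlike that of peaks of fold 8 or more. Counting every TSS within 50 kb gave 39 members and 81 peaks. TGTGGT alone was in 15.4% of the peaks, and the middle 200 bp held a core in 19.2%. Lower counts follow from fewer peaks or less sequence, and the cause of the lower core share among peaks of fold 8 or more was not tested. With predicted transcripts added, 26 members were nearest to a peak, of which 22 were among the 23 reported, with Zbtb7c lost and Zbtb8os, Zbtb20, Zbtb37 and Zbtb38 gained. With TSSs of protein-coding genes alone, Zbtb20 and Zbtb37 were gained. No paired analysis was possible because the authors merged the replicates before calling peaks, and for the same reason no replicate could be left out. In a filtered list of peaks, weaker binding under the authors' filters cannot be told from none.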
